A study of Homo sapiens with 6 samples.

Results

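The genes described here take part in the breakdown, transport and signalling of histidine and its derivative histamine. They are 10 of the 60676 genes in the count tables: the histidine-degrading enzymes HAL, AMDHD1 and FTCD, the histamine-forming enzyme HDC, the histamine-inactivating enzyme HNMT, the histamine receptors HRH1 and HRH2, the dipeptidase CNDP2 and the lysosomal carriers SLC15A3 and SLC15A4. Each was found by matching the Ensembl gene identifiers of the tables to gene symbols in GENCODE v44, and all 10 were present in both tables. RNA was sequenced from HT29, an established human colon adenocarcinoma line labelled wild type, after 48 h in control medium (untreated), in histidine-free medium (histidine depletion) or in tryptophan-free medium (tryptophan depletion). Each group had 2 libraries. The study used tryptophan depletion as its control for amino acid stress in general. By its methods, RPMI was the base of the histidine-free medium and DMEM F-12 that of the tryptophan-free one, and dialyzed serum was added to both. The base of the control medium for these libraries is not named in the sources used here, so an effect of the base medium and one of the missing amino acid cannot be told apart. The sources do not say whether the libraries of a group came from separate cultures, and the p-values measure only the spread between these libraries, which may be technical.

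Histidine is an essential amino acid. Cells take it up through amino acid carriers, load it onto tRNA for protein synthesis, store part of it in dipeptides such as carnosine, or degrade it. HAL removes ammonia from histidine to give urocanate, UROC1 hydrates urocanate, AMDHD1 opens the imidazolone ring, and FTCD hands the formimino group to folate. This route runs mainly in liver, and HAL is also known from skin. HDC instead removes the carboxyl group to give histamine, a step best known from mast cells, basophils, gastric enterochromaffin-like cells and some neurons. HNMT methylates histamine inside cells, and AOC1 oxidises it outside them, mostly in gut epithelium. HRH1 couples to Gq and phospholipase C, whereas HRH2 couples to Gs and adenylyl cyclase. CNDP2 cleaves dipeptides in the cytosol, and SLC15A3 and SLC15A4 carry histidine and small peptides out of the lysosome.

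The largest difference among the 10 genes was in HRH1. It was 7.93-fold higher after histidine depletion and 1.30-fold higher after tryptophan depletion. HNMT and CNDP2 were lower after both depletions, more so after tryptophan depletion. In the route that degrades histidine, HAL was higher and AMDHD1 lower after histidine depletion, both from 64 reads or fewer in any library. HRH2 had no read in any library.

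The libraries held 46390819 to 64388876 reads assigned to genes. The 10 genes together took 0.0134% to 0.0208% of them. Markers of intestinal epithelium were present in all libraries: the 10 listed genes, KRT8 and EPCAM among them, summed to 429273–455696 jointly scaled reads in untreated, 525718–554152 in histidine-depleted and 606660–610003 in tryptophan-depleted libraries. After histidine depletion 4 of these 10 genes were higher and 6 lower, with a median log2 fold change of −0.32, and the higher sum came mostly from KRT8, with 170745 and 202628 reads in untreated and 355222 and 334589 in histidine-depleted libraries. LGALS4 fell, with 49540 and 56770 reads in untreated and 19384 and 19322 in histidine-depleted libraries. After tryptophan depletion 5 were higher and 2 lower, with a median of 0.24. KRT20, a keratin of differentiated gut epithelium, had 9391 and 10817 reads in untreated, 38295 and 34460 in histidine-depleted and 51897 and 59957 in tryptophan-depleted libraries. FABP1, an enterocyte gene of that list, had 28 and 25 reads in untreated, 0 and 0 in histidine-depleted and 2 and 2 in tryptophan-depleted libraries. It reached the mean of 10 normalized counts required for the test only through the untreated libraries, where it was high. The counts and medians of this list after both depletions include it. Jointly scaled reads are whole reads recovered from both tables and divided by size factors computed over all 6 libraries. They are used to compare the 3 groups where the text names them as jointly scaled. Values given as reads alone are unscaled, and the libraries differ in depth as given above. Both tables contain the same untreated libraries, so the 2 depletions share their controls.

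Sequence upstream of annotated starts is given first. The values below are counts per gene and do not show which start was used. RefSeq promoter windows of GRCh38.p14, each 250 bases before and 50 after a start site, matched 9 of the 10 genes in 13 windows. SLC15A3 had no entry. HRH1, the gene that differed most, has 3 annotated starts. The upstream bases of its middle and last windows lie outside annotated exons and are printed with those of AMDHD1, which fell after histidine depletion, and SLC15A4, which was not called in any comparison. The positions are chr3:11154243-11154492 (plus strand) and chr3:11252449-11252698 (plus strand) for HRH1, chr12:95943081-95943330 (plus strand) for AMDHD1 and chr12:128823959-128824208 (minus strand) for SLC15A4. All run 5′ to 3′ and end at the base before the start site. They are in lower case throughout, since none of the motifs searched was found in them.
HRH1, middle start: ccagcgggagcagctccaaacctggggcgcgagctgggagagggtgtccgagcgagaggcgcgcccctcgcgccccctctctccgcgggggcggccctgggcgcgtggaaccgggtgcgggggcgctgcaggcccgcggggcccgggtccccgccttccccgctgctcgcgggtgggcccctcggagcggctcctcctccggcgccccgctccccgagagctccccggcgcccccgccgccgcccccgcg
HRH1, last start: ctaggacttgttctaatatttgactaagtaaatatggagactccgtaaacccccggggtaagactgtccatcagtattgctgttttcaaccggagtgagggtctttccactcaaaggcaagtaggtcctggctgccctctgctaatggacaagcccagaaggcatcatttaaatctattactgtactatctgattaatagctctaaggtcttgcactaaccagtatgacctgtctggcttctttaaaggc
AMDHD1: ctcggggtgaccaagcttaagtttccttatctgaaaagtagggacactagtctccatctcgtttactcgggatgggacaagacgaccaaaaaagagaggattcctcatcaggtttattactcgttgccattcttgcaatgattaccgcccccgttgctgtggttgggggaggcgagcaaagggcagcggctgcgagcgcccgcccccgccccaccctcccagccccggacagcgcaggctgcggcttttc
SLC15A4: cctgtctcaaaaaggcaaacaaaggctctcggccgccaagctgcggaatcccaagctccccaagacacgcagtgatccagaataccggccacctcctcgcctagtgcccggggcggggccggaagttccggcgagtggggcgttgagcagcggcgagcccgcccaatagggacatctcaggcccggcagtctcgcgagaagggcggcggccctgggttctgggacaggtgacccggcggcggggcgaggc
The middle HRH1 window had 82.8% G and C bases, far above the last one. The AMDHD1 window had 57.6% and the SLC15A4 window 68.4%.

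Sequence motifs were searched on both strands of each 300-base window, and matches were found in HRH1, HNMT and CNDP2. The motifs were the amino acid response element core TGATGNAA, the E-box core CACGTG, the AP-1 core TGANTCA, an interferon response core (GAAA, any pair of bases, GAAA) and an NF-kB core (GGGA, any base, TTTCC). The AP-1 core was added after the sequences had been seen. Short stretches around the matches are given because each lies in or near an annotated exon. Capitals mark the match, at chr3:11137156-11137184 for HRH1, chr2:137964298-137964326 for HNMT, and chr18:74496350-74496377 and chr18:74499853-74499880 for CNDP2, all on the plus strand.
HRH1, first start: tttagtcagacTGAGTCActtcaaggagg
HNMT: cgttcaaatatTGACTCAgtaatgagctc
CNDP2, first start: cgtggccgggaCACGTGgtacggaaccg
CNDP2, last start: acaattctgaaCACGTGctttctgggca
The AP-1 core began 71 bases before the first HRH1 start and 164 bases before the HNMT start. The E-box core began 2 bases before the first CNDP2 start and 28 bases before the last. No 2 matches overlapped. Of 35116 RefSeq promoters of this length, 7.71% held the AP-1 core, 7.26% the E-box core, 3.62% the amino acid response element core, 3.57% the interferon core and 0.558% the NF-kB core. A match describes the letters in the window and not a bound site.

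HRH1 (ENSG00000196639, chr3:11137093-11263557, plus strand) encodes the Gq-coupled histamine receptor. Untreated libraries held 454.7 and 425.7 jointly scaled reads, histidine-depleted libraries 3506 and 3433, and tryptophan-depleted libraries 562.4 and 586.9. Both histidine-depleted libraries stood far above the other 4, the tryptophan-depleted libraries stood just above the untreated ones, and no groups overlapped. In the deposited normalized counts HRH1 went from 436.5 ± 19.1 (SD, n = 2) to 3463 ± 62.7 (SD, n = 2) with histidine depletion, a log2 fold change of 2.99 (SE 0.063, 95% interval 2.86 to 3.12), and limma with Benjamini-Hochberg adjustment over 18288 genes gave an adjusted p of 3.69e-22. With tryptophan depletion it went from 432.8 ± 20.1 (SD, n = 2) to 562.1 ± 20.3 (SD, n = 2), a log2 fold change of 0.38 (SE 0.082) with a limma adjusted p of 2.18e-05 over 17960 genes. The direct comparison of the depletions put HRH1 6.04-fold higher without histidine than without tryptophan (log2 difference 2.59, 95% interval 2.47 to 2.72, limma adjusted p = 2.08e-16). In a bulk sample such a value cannot tell a change in the number of cells of a kind from a change in RNA per cell.

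The Gs-coupled receptor HRH2 (ENSG00000113749, chr5:175658030-175710756, plus strand) had 0 reads in all 6 libraries. A limit of 3 reads, which covers counting error only, would place it below 0.00821 to 0.0114 RPKM (reads scaled to exon length and to library total), depending on the library. HRH3 had at most 2 reads in any library. HRH4, known from leukocytes, had no read in the untreated libraries, 13 and 2 in the histidine-depleted and 5 and 4 in the tryptophan-depleted libraries. HRH1 was therefore the only one of the 4 histamine receptor genes with more than 13 reads in a library.

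**Figure D1:**
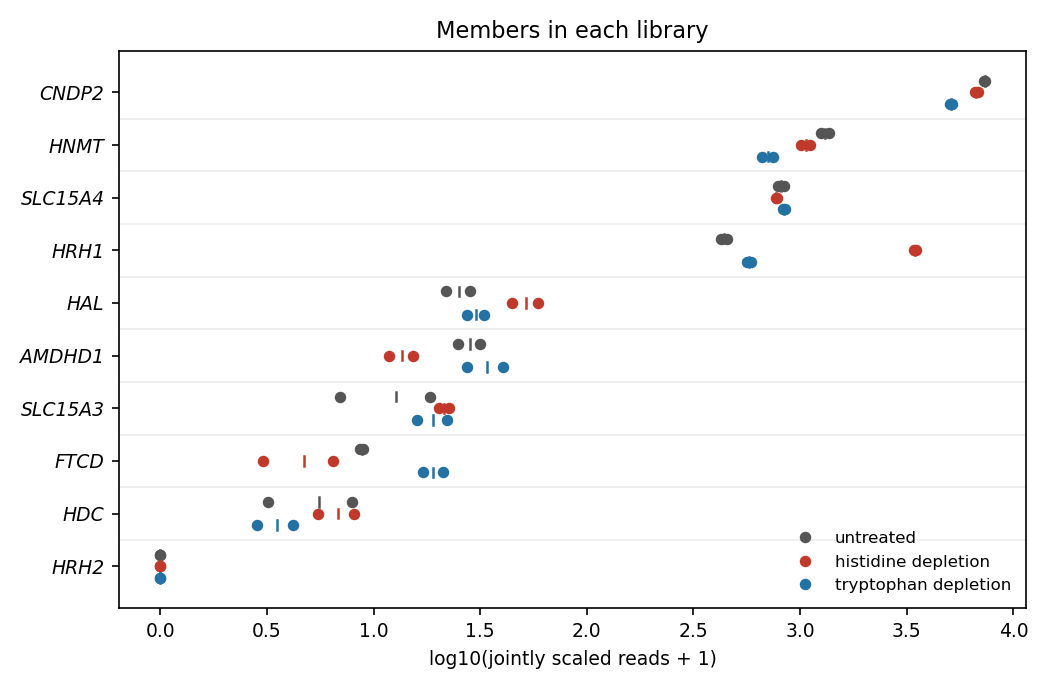
Jointly scaled reads of the 10 genes in each library on a log10(value + 1) axis. Untreated libraries are in grey, histidine-depleted in red and tryptophan-depleted in blue. A short bar marks the mean of the scaled reads of each group, placed on the same axis. HRH1 moved from 425.7–454.7 in untreated to 3433–3506 in histidine-depleted libraries, while HRH2 stayed at 0 and SLC15A4 within 766.2–850.5.

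HNMT (ENSG00000150540, chr2:137964020-138016364, plus strand), the cytosolic histamine methyltransferase, was lower in both depletions. It had 1246 and 1360 jointly scaled reads in untreated, 1014 and 1107 in histidine-depleted and 741.6 and 663.9 in tryptophan-depleted libraries. The 3 groups did not overlap, with untreated highest and tryptophan-depleted lowest. The log2 fold change was −0.29 with histidine depletion (SE 0.068, limma adjusted p = 0.00048) and −0.90 with tryptophan depletion (SE 0.066, limma adjusted p = 1.92e-26). The histidine-depleted libraries were 1.51-fold above the tryptophan-depleted ones (log2 difference 0.59, SE 0.07, limma adjusted p = 5.3e-07).

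HDC (ENSG00000140287, chr15:50241947-50265965, minus strand), the enzyme that makes histamine, was near the floor of detection. It had 2 and 7 reads in untreated, 5 and 7 in histidine-depleted and 3 and 2 in tryptophan-depleted libraries, before any scaling. Both depletion groups overlapped with untreated, and the gene fell below the mean of 10 normalized counts required for the test in each comparison. Of 10 mast cell markers, TPSAB1, CPA3, KIT and FCER1A had no read in any library and 9 had at most 3 reads in each. The remaining one, GATA2, a transcription factor gene not confined to mast cells, made up nearly all of the list's sum of 2328–2557 jointly scaled reads in untreated, 868.3–920.8 in histidine-depleted and 1460–1520 in tryptophan-depleted libraries. Of 8 enteroendocrine markers, 3 had no read in any library (NEUROD1, SST and GCG), and the list summed to 27.8–40.4 jointly scaled reads in untreated, 51.9–59.6 in histidine-depleted and 31.1–43.8 in tryptophan-depleted libraries. After histidine depletion 1 of its 2 tested genes was higher and 1 lower. SCG2 had 9 and 9 reads in untreated, 41 and 32 in histidine-depleted and 18 and 19 in tryptophan-depleted libraries. TPH1 had 24 and 14, 10 and 9, and 13 and 8 reads in the same order. For the test after histidine depletion, SCG2 reached the required mean only through the histidine-depleted libraries, where it was high. TPH1 reached it only through the untreated libraries, where it was high. Of 7 leukocyte markers, PTPRC, CD3E and CD68 had at most 3 reads in each library. The sum of that list, 64946–69600 in untreated, 12579–14604 in histidine-depleted and 38420–38440 in tryptophan-depleted libraries, was mostly LYZ, a lysozyme gene that gut epithelium also uses. Of its 3 tested genes, 1 was higher and 2 lower after each depletion. CD14 had 95 and 120 reads in untreated, 56 and 62 in histidine-depleted and 356 and 401 in tryptophan-depleted libraries. ITGAM had 60 and 77, 114 and 95, and 4 and 12 reads in the same order. For the test after tryptophan depletion, ITGAM reached the required mean only through the untreated libraries, where it was high. The percentages of all genes called, given below, apply to these marker counts as well. The part of these markers in the results was not tested.

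Of the 3 enzymes that degrade histidine, HAL rose and AMDHD1 fell with histidine depletion, and FTCD was too low to test there. HAL (ENSG00000084110, chr12:95972662-95996365, minus strand), the first and committed enzyme, had 27.3 and 20.9 jointly scaled reads in untreated, 57.8 and 43.8 in histidine-depleted and 32.0 and 26.6 in tryptophan-depleted libraries. The histidine-depleted libraries lay above the other 4, and the untreated and tryptophan-depleted ranges overlapped. In the deposited normalized counts HAL was 2.12-fold higher with histidine depletion (log2 fold change 1.05, SE 0.268, limma adjusted p = 0.00109), and its log2 fold change with tryptophan depletion was 0.27 (95% interval −0.34 to 0.88, limma adjusted p = 0.439). The direct log2 difference between the depletions was 0.77 (limma adjusted p = 0.0158). That call was lost without 1 library in 2 cases, histidine-depleted library 1 (0.57, adjusted p = 0.147) and tryptophan-depleted library 2 (0.64, adjusted p = 0.0948), and with DESeq2 (adjusted p = 0.0795).

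AMDHD1 (ENSG00000139344, chr12:95943331-95968720, plus strand), the imidazolonepropionase, is the neighbour of HAL. The 2 genes converge, with 3941 bases between their ends. AMDHD1 had 30.6 and 23.9 jointly scaled reads in untreated, 10.8 and 14.2 in histidine-depleted and 39.5 and 26.6 in tryptophan-depleted libraries. The histidine-depleted libraries lay below the other 4, opposite to HAL, and the untreated and tryptophan-depleted ranges overlapped. The log2 fold change was −1.05 with histidine depletion (SE 0.344, limma adjusted p = 0.00793), −1.31 against tryptophan depletion (SE 0.318, limma adjusted p = 0.00123) and 0.25 with tryptophan depletion (95% interval −0.34 to 0.83, limma adjusted p = 0.462). The call against untreated was lost with DESeq2 (adjusted p = 0.0992) and without untreated library 1 (−0.88, adjusted p = 0.0639).

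FTCD (ENSG00000160282, chr21:46136160-46155579, minus strand), the folate-dependent last enzyme, had 7 and 8 reads in untreated, 6 and 2 in histidine-depleted and 15 and 22 in tryptophan-depleted libraries. It passed the mean of 10 normalized counts only with the tryptophan-depleted libraries, where it was high, so its log2 fold change of 1.10 (SE 0.433, limma adjusted p = 0.0186) is that of a gene admitted by the group that differed. The call was lost with DESeq2 (adjusted p = 0.161) and without tryptophan-depleted library 2 (0.94, adjusted p = 0.182). An antisense gene, FTCD-AS1, overlaps 3.62% of its exonic bases, and whether the counting used strand is not given in the sources used here. UROC1, the enzyme between HAL and AMDHD1, had at most 5 reads in any library.

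CNDP2 (ENSG00000133313, chr18:74495816-74523454, plus strand), the cytosolic dipeptidase, was the most abundant of the 10 genes in untreated cells. It had 7348 and 7311 jointly scaled reads in untreated, 6625 and 6787 in histidine-depleted and 5033 and 5174 in tryptophan-depleted libraries. The groups did not overlap and stood in the same order as for HNMT. With tryptophan depletion the log2 fold change was −0.53 (SE 0.047, limma adjusted p = 9.98e-21). With histidine depletion it was −0.12 (SE 0.049, limma adjusted p = 0.0299), and that call was lost without histidine-depleted library 1 (−0.11, adjusted p = 0.278) or library 2 (−0.13, adjusted p = 0.162). Quantile normalization gave −0.33 (adjusted p = 1.06e-05), so the size of this change depends on the scaling. CNDP2 was 1.31-fold higher without histidine than without tryptophan (log2 difference 0.39, SE 0.039, limma adjusted p = 5.25e-08).

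SLC15A4 (ENSG00000139370, chr12:128793194-128823958, minus strand) and SLC15A3 (ENSG00000110446, chr11:60937060-60952653, minus strand), the lysosomal histidine and peptide carriers, passed the test in no comparison. SLC15A4 had 837.2 and 786.7 jointly scaled reads in untreated, 776.1 and 766.2 in histidine-depleted and 850.5 and 827.8 in tryptophan-depleted libraries. The histidine-depleted libraries were the lowest, by a small margin. Its log2 fold change was −0.065 with histidine depletion (95% interval −0.21 to 0.083, limma adjusted p = 0.413) and 0.04 with tryptophan depletion (95% interval −0.095 to 0.18, limma adjusted p = 0.607), and the log2 difference between the depletions was −0.12 (95% interval −0.25 to 0.011, limma adjusted p = 0.0869). The last of these passed in edgeR (adjusted p = 0.044).

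SLC15A3 had 16 and 6 reads in untreated, 24 and 19 in histidine-depleted and 14 and 23 in tryptophan-depleted libraries. The untreated libraries differed from each other more than the depleted ones did. Its log2 fold change was 0.93 with histidine depletion (95% interval 0.051 to 1.81, limma adjusted p = 0.0504) and 0.72 with tryptophan depletion (95% interval −0.11 to 1.54, limma adjusted p = 0.118). Without untreated library 1 the values were 1.63 (adjusted p = 0.00279) and 1.42 (adjusted p = 0.00846). Without untreated library 2 they were 0.23 (adjusted p = 0.59) and 0.014 (adjusted p = 0.98), so both values turned on which untreated library was kept. The oppositely oriented gene TMEM132A overlaps 1.44% of the exonic bases of SLC15A3.

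**Figure D2:**
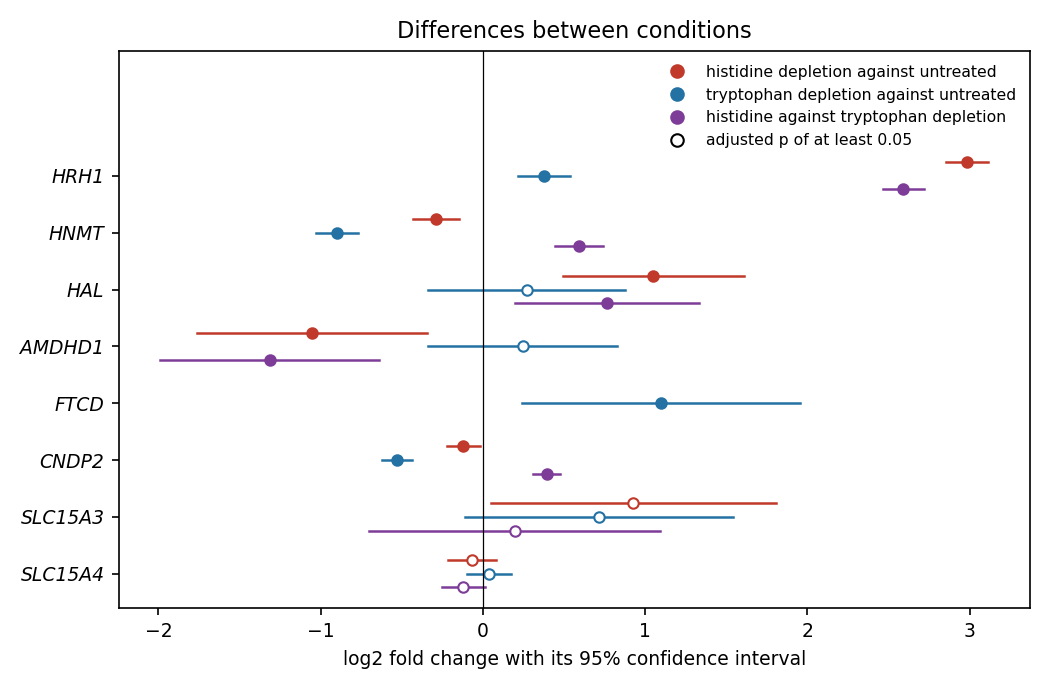
Log2 fold changes from limma with their 95% confidence intervals for the 8 genes tested in at least 1 comparison, with filled points for an adjusted p under 0.05 and open points otherwise. The interval of HRH1 with histidine depletion, 2.86 to 3.12, lies above all the others in the plot, followed by that of HRH1 between the depletions, 2.47 to 2.72.

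Counted together, 2 of the 7 genes tested after histidine depletion were higher (HRH1 and HAL) and 3 lower (HNMT, CNDP2 and AMDHD1). Over all genes tested in that comparison 39.1% were higher and 38.2% lower. After tryptophan depletion 2 of 8 were higher (HRH1 and FTCD) and 2 lower (HNMT and CNDP2), where 36.1% and 34.8% of all genes were called. Without FTCD, which passed the filter only through the tryptophan-depleted libraries, 1 of 7 was higher and 2 were lower, a count added after the data were seen. In the direct comparison 4 of 7 were higher without histidine (HRH1, HAL, HNMT and CNDP2) and 1 lower (AMDHD1), where 38.7% and 38.0% of all genes were called. With a log2 change of 1 or more in size as a further condition, 3 genes remained after histidine depletion (32.5% of all genes), only FTCD, with the same limit, after tryptophan depletion (20.5%) and 2 between the depletions (31.7%). The median log2 fold change of the 7 genes after histidine depletion was −0.065, beside 0.01 for all genes, and that after tryptophan depletion 0.26 for the 8 genes and 0.25 without FTCD, beside 0.013. With 7 or 8 genes tested, these counts say nothing of the set as a whole.

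To compare genes with each other, levels were expressed as RPKM, reads scaled to exon length and to the total of the library. In untreated libraries the order was CNDP2 (12.3 and 11.8 in the 2 libraries), HNMT (mean 5.32), SLC15A4 (2.89), HRH1 (1.53), AMDHD1 (0.20), HAL (0.091), FTCD (0.044), SLC15A3 (0.033), HDC (0.023) and HRH2 (0). The ranges of FTCD and SLC15A3 overlapped, as did those of SLC15A3 and HDC, and the other neighbours did not overlap. After histidine depletion HRH1 headed the order with a level of 10.7, ahead of CNDP2 (9.72), HNMT (3.82) and SLC15A4 (2.42), and HAL (0.169) stood above AMDHD1 (0.081). After tryptophan depletion CNDP2 (7.94) led again, the ranges of SLC15A4 (2.82) and HNMT (2.72) overlapped, and HRH1 (1.89) followed. Division by total reads in place of size factors lowers every log2 fold change, by 0.19 with histidine depletion and by 0.071 with tryptophan depletion, and on that scale SLC15A4 ranged from 2.39 to 2.44 in histidine-depleted and from 2.75 to 3.02 in untreated libraries. In every group 4 of the genes stood above 1 and the other 6 below.

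**Figure D3:**
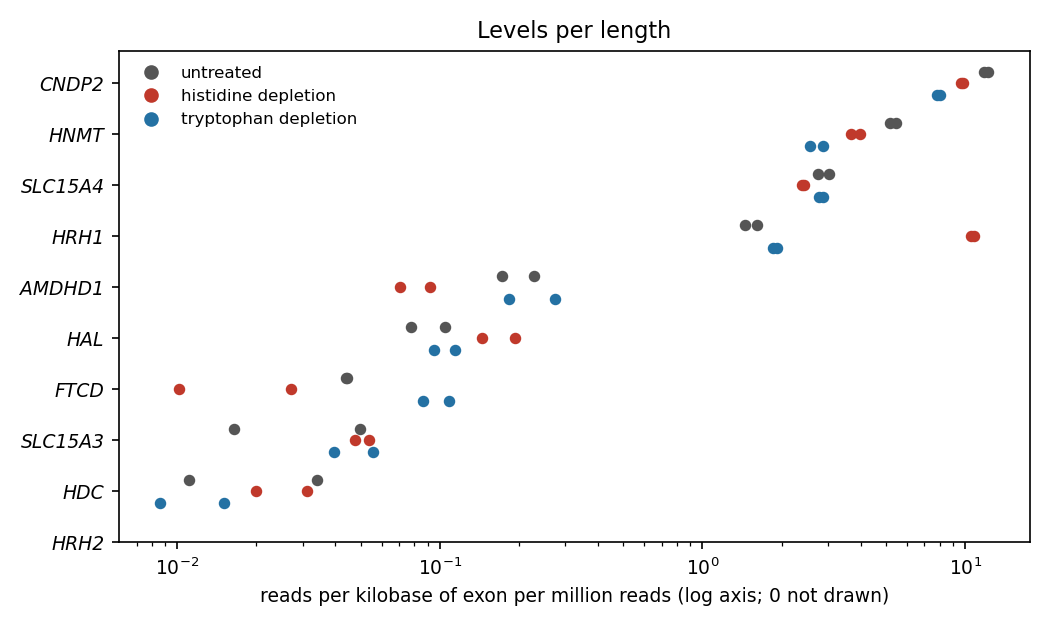
Level of each gene in each library in RPKM, on a log axis, coloured by group as in the plot of reads by library. CNDP2, HNMT, SLC15A4 and HRH1 lie above 1 in all libraries, the other genes below 1, and HRH2, at 0, cannot be drawn.

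Genes whose pattern over the 6 libraries was most like that of 3 of these genes were found by Euclidean distance of centred log2 values among 13181 protein-coding genes. HRH1 was nearest to HCFC2 (distance 0.193), RAB8B (0.194) and ZNF143 (0.207). RAB8B, a small GTPase gene, had 437.2 and 442.6 jointly scaled reads in untreated, 3254 and 3054 in histidine-depleted and 560.2 and 602.5 in tryptophan-depleted libraries, which are also near the levels of HRH1 reads. HNMT was nearest to JMJD8 (0.115), ATPSCKMT (0.117) and H2AZ1 (0.135), and CNDP2 to BABAM1 (0.0385), TIMM8A (0.047) and the glycolytic gene PGK1 (0.0516). With 6 libraries in 3 groups these distances rest largely on 3 group means.

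**Figure D4:**
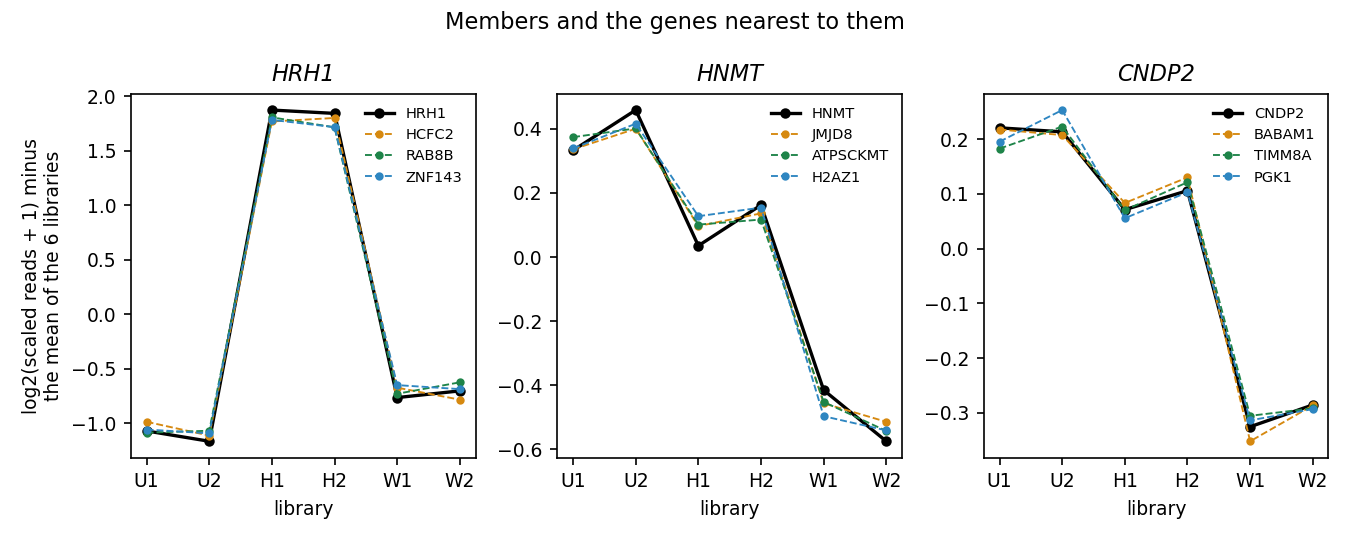
Centred log2(jointly scaled reads + 1) of HRH1, HNMT and CNDP2 (black) and the 3 genes nearest to each (dashed) in untreated (U), histidine-depleted (H) and tryptophan-depleted (W) libraries 1 and 2, with a different vertical scale in each panel. HRH1 and its neighbours are high in the H libraries, whereas the HNMT and CNDP2 groups step down from U to H to W.

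Of 49 other genes of histidine and histamine biology, 34 were tested after each depletion. After histidine depletion 12 were higher and 19 lower, with a median log2 fold change of −0.26. After tryptophan depletion 15 were higher and 13 lower, with a median of 0.068. In the direct comparison 33 were tested, 10 higher without histidine and 18 lower. The percentages of all genes called, given above, apply to these counts as well.

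Among the 7 other genes that inactivate or carry histamine, 1 of 6 tested was higher and 4 lower after histidine depletion, beside 3 higher and 2 lower after tryptophan depletion. AOC1, the secreted diamine oxidase, went from 1865 and 2019 normalized counts to 453.6 and 561.3 with histidine depletion (log2 fold change −1.94, SE 0.081, limma adjusted p = 1.27e-16), and its log2 fold change with tryptophan depletion was −0.75 (SE 0.057, limma adjusted p = 3.54e-25). SLC22A3, an organic cation carrier that takes up histamine, rose with both, by 2.13 and 1.86 on the log2 scale. SLC29A4, another monoamine carrier, fell by 3.20 on the log2 scale with histidine depletion, from 195.8 and 241.1 to 14.5 and 35.5 normalized counts, and rose by 0.77 with tryptophan depletion. MAOA, a monoamine oxidase named here after its values were seen, fell by 0.37 and rose by 1.11 on the same scale.

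In the carnosine list, the carnosine synthase gene CARNS1 and the carnosine methyltransferase gene CARNMT1 moved in opposite directions with histidine depletion. CARNMT1 went from 1697 and 1734 to 4050 and 3929 normalized counts (log2 fold change 1.22, SE 0.053, limma adjusted p = 3.02e-16), whereas CARNS1 went from 49.8 and 41.5 to 16.3 and 21.3 (log2 fold change −1.24, SE 0.283, limma adjusted p = 0.000354). With tryptophan depletion the log2 fold change of CARNMT1 was 0.091 (limma adjusted p = 0.13), and that of CARNS1 was 0.50 (limma adjusted p = 0.0363). The CARNS1 call after tryptophan depletion was lost without untreated library 2 (0.37, adjusted p = 0.166) or tryptophan-depleted library 1 (0.47, adjusted p = 0.136) or 2 (0.53, adjusted p = 0.0924). It was also lost with DESeq2 (adjusted p = 0.226), with all 6 libraries in 1 fit (0.0748), with quantile normalization (0.0534) and without a filter on low values (0.0648). Opposite-strand exons overlap 5.57% of the CARNS1 exonic bases.

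Of 10 other histidine or peptide carriers, 7 were tested and all of them passed after each depletion, 4 higher and 3 lower in both. The higher and lower genes were not the same in the 2 depletions. SLC38A5 fell by 0.84 on the log2 scale with histidine depletion and rose by 0.45 with tryptophan depletion. SLC7A8 rose by 0.92 and fell by 1.11, and SLC7A5 and SLC43A2 also changed direction, as given below. SLC3A2, the heavy chain of several amino acid carriers, rose with both, by 1.02 and 1.08 on the log2 scale. SLC7A5, its LAT1 partner, rose by 0.66 with tryptophan depletion, from 40623 and 44106 to 65124 and 68509 normalized counts. With histidine depletion its log2 fold change was −0.16 (SE 0.06, limma adjusted p = 0.0215), a call lost without histidine-depleted library 1 (−0.12, adjusted p = 0.45) or 2 (−0.20, adjusted p = 0.182), and quantile normalization gave −0.47 (adjusted p = 4.19e-07). SLC43A1, a carrier of large neutral amino acids, fell by 1.37 on the log2 scale with histidine depletion and by 0.13 with tryptophan depletion, the latter a call lost without tryptophan-depleted library 1 (adjusted p = 0.216) or 2 (adjusted p = 0.131). Its relative SLC43A2 rose by 0.94 and fell by 0.58.

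SLC15A4 is known to hold the adaptor TASL at the lysosome, which recruits the transcription factor IRF5 downstream of endosomal Toll-like receptors. TASL, TLR7 and TLR8 had no read in any library, and TLR9 at most 4. Another protein-coding gene overlaps 99.7% of the exonic bases of TLR9 on the same strand. Reads there cannot be assigned with certainty, so the TLR9 count does not show that its RNA was absent. IRF5 went from 616.6 and 596.9 to 238.6 and 278.6 normalized counts with histidine depletion (log2 fold change −1.23, SE 0.096, limma adjusted p = 2.17e-11) and from 612.5 and 590.7 to 1002 and 905.7 with tryptophan depletion (log2 fold change 0.66, SE 0.07, limma adjusted p = 6.2e-16). The direct log2 difference was −1.91 (SE 0.086, limma adjusted p = 1.16e-12), and the groups did not overlap.

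Of 5 genes whose proteins use histidine, 3 were higher and 1 lower after histidine depletion, and none was higher and 4 lower after tryptophan depletion. HARS1, the cytosolic histidyl-tRNA synthetase, rose by 0.38 on the log2 scale with histidine depletion and fell by 0.30 with tryptophan depletion. HARS2, the mitochondrial enzyme, fell by 1.05 and 0.19. The 2 genes are close copies that lie head to head, so the split of reads between them is uncertain. HARS1 exons overlap 2.90% of the exonic bases of HARS2. Opposite-strand exons of WDR55 and HARS2 overlap 8.46% of those of HARS1. By the gene bounds HARS1 and HARS2 share only chr5:140691430-140691537, so most of the 8.46% is with WDR55. METTL18, a histidine methyltransferase of the ribosome, rose by 0.59 with histidine depletion, and its log2 fold change with tryptophan depletion was −0.17 (limma adjusted p = 0.119).

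Of 16 genes that couple histamine receptors to their messengers, 13 were tested. After histidine depletion 3 were higher and 9 lower, and after tryptophan depletion 6 were higher and 4 lower. Both lower counts include PLCB2, which passed the filter only through the untreated libraries, with 24 and 17 reads there, 0 and 0 in histidine-depleted and 1 and 5 in tryptophan-depleted libraries. PLCB3, a phospholipase C gene on the Gq route of HRH1, went from 6949 and 7100 to 1976 and 2228 normalized counts with histidine depletion (log2 fold change −1.74, SE 0.056, limma adjusted p = 9.85e-19), and its log2 fold change with tryptophan depletion was 0.028 (limma adjusted p = 0.598). PLCB4, of the same family, fell by 1.63 and 0.85 on the log2 scale. PLCB1, also a phospholipase C gene and named here after its values were seen, rose with both depletions, by 0.54 and 0.34 (limma adjusted p = 7.25e-08 and 7.35e-07). ADCY4, an adenylyl cyclase gene of the Gs route, rose by 1.43 and 2.74, from 119.3 normalized counts to 324.5 with histidine depletion. Other genes of that route are named after their values were seen. With histidine depletion ADCY6 fell by 1.05, ADCY3 by 0.63, ADCY7 by 0.74 and GNAS by 0.32. ADCY5 rose by 0.60 (limma adjusted p = 0.0347), and ADCY9 was not called (0.25). With tryptophan depletion ADCY7 rose by 1.41, ADCY5 by 1.03 and ADCY6 by 0.35, whereas GNAS fell by 0.30 and ADCY3 by 0.13. ADCY9 was again not called (0.24). Exons of other genes overlap 41.8% of the exonic bases of ADCY7, 24.4% of ADCY3, 8.43% of ADCY6 and 7.09% of ADCY4. They also overlap 5.78% of METTL18, 5.69% of SLC7A5, 5.23% of GNAS, 4.86% of PLCB2 and 4.24% of ADCY5. Reads in these stretches cannot be assigned with certainty.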

How the data were processed

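Poly-A RNA of 6 HT29 libraries was sequenced with a stranded TruSeq kit and unique molecular identifier adapters. Per the study's methods and the submitters' processing notes, reads were aligned to GRCh38 with STAR 2.7.10a and counted over exons with htseq-count 2.0.5. The methods name exons of protein-coding genes and an earlier GENCODE release than the v44 used here for symbols, exon lengths and overlaps. Whether identifiers or strand were used in counting is not given in the sources used here. The deposited values, treated as signal, are counts that the authors divided by DESeq2 size factors, separately for the 2 tables. Dividing each column by its smallest step returned whole reads for 100% of values within 0.001, and the untreated reads were the same in both tables. Of 60676 identifiers 60357 matched GENCODE v44.

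Within a table, log2(value + 1) of genes with a mean of at least 10 was tested with limma 3.58.1 (trend on, two-sided, Benjamini-Hochberg over all genes, threshold 0.05, R 4.3.3). A fold change on this scale understates that of low genes. The depletions were compared on recovered reads of all 6 libraries with median-of-ratios scaling. The fits were tested on simulated data. Alternatives were edgeR 4.0.16, DESeq2 1.42.0, other pseudocounts, filters and scalings, and each library left out. Levels used the union of annotated exons.

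The genes and lists were chosen with earlier results of these data known. The text names all 10 genes. From each list of other genes it names up to 3 with the largest absolute log2 fold change after histidine depletion among those called with a mean of at least 100 in the higher group, and UROC1, CARNS1, CARNMT1, AOC1, HRH3, HRH4, SLC7A5, SLC3A2, TASL, IRF5, HARS1 and HARS2. MAOA, SLC38A5, SLC7A8, PLCB1, PLCB2, ADCY3, ADCY5, ADCY6, ADCY7, ADCY9, GNAS, TLR7, TLR8 and TLR9 fall outside this rule. They were named after their values were seen, as were marker genes named for their reads. For likeness it names the 3 genes nearest to the 3 members of largest change with that mean.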

Additional observations from a re-analysis of the deposited data

Results flagged for a closer look

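The response to histidine depletion and the response to tryptophan depletion differed, by the direct limma comparison of the depletions, for 5 of the 7 genes tested, beside 38.7% higher and 38.0% lower over all genes tested. The log2 difference, histidine minus tryptophan depletion, was 2.59 for HRH1 (limma adjusted p = 2.08e-16). It was 0.59 for HNMT, 0.39 for CNDP2, 0.77 for HAL and −1.31 for AMDHD1. In these 5 genes the ranges of the depletion groups did not overlap. They had been picked as called, and the share of all genes without overlap was not computed, so this adds nothing to the calls. For HRH1 both depletions were above untreated, and for HNMT and CNDP2 both were below. HAL and AMDHD1 rested on 64 reads or fewer in each library, and HAL lost its call under the alternatives given for it.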

How the results depend on the processing

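Over the alternatives tried, the genes of the histidine and histamine set kept direction and side of the threshold in 290 cases, lost the call in 11, gained it in 6 and changed sign in 4, none of which had been called. HRH1 kept its calls, with log2 fold changes of 2.94 to 3.05 after histidine depletion, 0.33 to 0.50 after tryptophan depletion and 2.53 to 2.62 between them. HNMT ranged from −0.35 to −0.17, from −0.97 to −0.80 and from 0.51 to 0.67, and was called in all. The sign changed for SLC15A4 after histidine depletion with quantile normalization (0.13), for AMDHD1 after tryptophan depletion without 1 library (from −0.026 to 0.52, lowest without tryptophan-depleted library 1), for SLC15A4 after tryptophan depletion without 1 library (from −0.0043 to 0.085, lowest without untreated library 2) and for SLC15A3 between the depletions without 1 library (from −0.039 to 0.43, lowest without tryptophan-depleted library 1). PLCB3 after tryptophan depletion changed to −0.044 with quantile normalization. The cause was not tested. CNDP2 after histidine depletion also lost its call without a filter on low values (adjusted p = 0.0535) and without the trend (adjusted p = 0.12). Among calls that held, the size moved by over 1.5 times with quantile normalization after histidine depletion for HNMT (−0.17), CNDP2 (−0.33), SLC7A5 (−0.47) and HARS1 (0.21), and after tryptophan depletion for SLC43A1 (−0.20). It did so without untreated library 2 for SLC7A5 after histidine depletion (−0.094) and SLC43A1 after tryptophan depletion (−0.085), and with a pseudocount of 8 for FTCD (0.71). SLC15A4 after tryptophan depletion gained a call with quantile normalization (0.15, adjusted p = 0.0466), and SLC15A3 after histidine depletion with a pseudocount of 8 (adjusted p = 0.0397).

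With a log2 change of 1 or more in size, calls after histidine depletion numbered 5949 over all genes, 3 in the set and 14 in the lists of other genes. After tryptophan depletion they numbered 3674, 1 and 8, and between the depletions 5794, 2 and 15. With a mean of at least 50 the set had 3 calls after histidine depletion and 3 between the depletions, since fewer of its genes were tested. Without 1 library at a time, calls in the set ranged from 4 to 5 after histidine depletion, from 3 to 5 after tryptophan depletion and from 4 to 6 between them, and over all genes from 12957 to 13851, from 11005 to 12585 and from 12954 to 14261. Where a group kept 1 library, that library was assumed to vary like the others. The medians of all genes moved by at most 0.033 under any of these settings.

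The labels number libraries 1 and 2 in each group without saying what a number marks, and the differences between libraries 1 and 2 correlated between groups at 0.040, −0.0072 and −0.085 over 13181 genes, so the numbers were not taken as pairs. With the number as a replicate block, SLC15A3 passed after histidine depletion (log2 fold change 0.93, adjusted p = 0.0297). Replicates differed by more than sampling noise, with a chi-square per degree of freedom of 9.74, 4.40 and 1.94 in untreated, histidine-depleted and tryptophan-depleted libraries. HAL, AMDHD1, FTCD, HDC and SLC15A3 are limited by depth, with at most 64 reads each, and 2 libraries a group limit all error estimates.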
